A study of Arabidopsis thaliana with 7 samples.

Results

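The genes described here are the plastid-encoded genes for transcription, translation and a few other functions in Arabidopsis thaliana seedlings exposed to CdS QDs, that is, quantum dots of cadmium sulfide, a semiconductor salt in crystals of a few nanometres. They are the genes of the plastid chromosome whose symbol begins with rpo, rpl, rps or ycf, together with matK, clpP, accD, cemA and ccsA, as far as a probe set of the array was assigned to that gene alone. Of 34 such genes in the gene table, 26 qualified, out of 69 plastid-encoded and 13356 genes in all that had a probe set of their own. Among those left out, rpl2, rpl23, rps7, rps12, ycf1 and ycf2 have more than 1 entry in the gene table and shared their probe sets between these.

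Seedlings of accession Ler-0 were grown for 14 days and then moved for 21 days to medium that held CdS QDs or none, and total RNA from the seedlings was hybridised to 7 Affymetrix ATH1 arrays. The groups were wild type (WT) at 0, 40 and 80 mg/L, and the mutants atnp01 and atnp02, both in the Ler-0 background and labelled as resistant to or tolerant of CdS QDs, at 0 and 80 mg/L. The labels do not name the genes altered in the mutants. Each group was 1 array, so no group has a spread of its own, and precision is limited by how few arrays there are.

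Plastids keep a small genome with many of its genes in transcription units inherited from a cyanobacterial ancestor. A bacterial-type RNA polymerase, whose core subunits are encoded by rpoA, rpoB, rpoC1 and rpoC2 in the plastid itself, transcribes most photosynthesis genes, while a phage-type polymerase encoded in the nucleus reads the rpoB operon and some housekeeping genes such as clpP and accD. Plastid ribosomes are mosaics of plastid-encoded proteins (the rpl and rps genes) and imported ones. Most plastid transcripts carry no poly-A tail, and short A-rich tails mark them for decay. The labelling chemistry used here primes on poly-A, so the values describe the part of each transcript pool that entered the labelled RNA, and how large that part was is not known from these data.

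All levels are the deposited log2 values, on which 2-fold is a difference of 1. Levels were compared between arrays for 1 probe set at a time and never between genes. Array medians differed by less than 0.1 between the exposed and the unexposed array of each line. Some other measures moved with exposure. The mean of 12 poly-A spike-in controls, added RNAs that follow the amplification, moved from 0 to 80 mg/L by -0.42 for WT, by -0.78 for atnp01 and by -0.45 for atnp02, and between 40 and 0 mg/L in WT by -0.31. On the unexposed arrays it was 0.27 higher in atnp01 than in WT and -0.12 from WT in atnp02. This spike-in mean lay between 2.82 and 3.66 on all arrays, near the array medians, so its shifts have no exact size. The mean of 9 hybridization controls differed by -0.19, -0.19 and -0.03. The gap between the 3′ and 5′ probe sets of the GAPDH control, a measure of RNA integrity, moved by -0.30 for WT, 0.32 for atnp01 and 0.21 for atnp02, and that of actin by -0.06, -0.01 and 0.37. The probe set for 25S ribosomal RNA, which carries no poly-A tail in its mature form, was 0.47 higher at 80 mg/L for WT, 0.01 higher for atnp01 and 1.07 higher for atnp02, and without QDs it differed from WT by 0.20 in atnp01 and -0.87 in atnp02. That for 5S ribosomal RNA moved by -0.44, -0.40 and -0.34, but it lay between 0.76 and 1.43 on all arrays. This is a range near background in which no change could be read. Of 14 markers of green tissue 5 were on the annotation, with a mean level of 10.2 to 10.6 on every array. In the test described below all 5 fell at 80 mg/L, with log2 changes from -0.79 to -0.14, where 29.3% of all tested genes fell. The 3 of 8 root markers on the annotation had a mean of 4.53 to 5.15. Of these only PYK10 reached log2 6 on the 0 and 80 mg/L arrays, where it lay between 10.23 and 10.70. The root mean thus mixes a bright probe set with dimmer ones and cannot be set against the green mean. In RNA from seedlings fewer green cells and less RNA per cell cannot be told apart. The part of these measures in the results below was not tested.

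At 80 mg/L many of the 26 genes were higher in all 3 lines, and none was lower in a way that passed the test. The ribosomal protein genes rpl16 and rpl14, the photosystem assembly gene ycf3, the small-subunit gene rps2 and the polymerase gene rpoC2 rose 4-fold or more. For ycf3, rps2 and rpoC2 only exposed arrays reached the brightness floor of the test described below. Their calls were thus in part set by that floor, although they also passed in a fit with no floor. The genes rpoA, rps4, rps18, rpl33 and cemA did not pass. The median difference between 80 and 0 mg/L over all 26 genes was 0.88 for WT, 0.89 for atnp01 and 0.79 for atnp02, beside medians of 0.00, -0.01 and -0.04 over all 13356 genes. The plot of the response of each gene shows the 3 lines side by side, and 19 of the 26 genes were higher in every line. The share of all genes that were higher in every line was not counted.

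**Figure D1:**
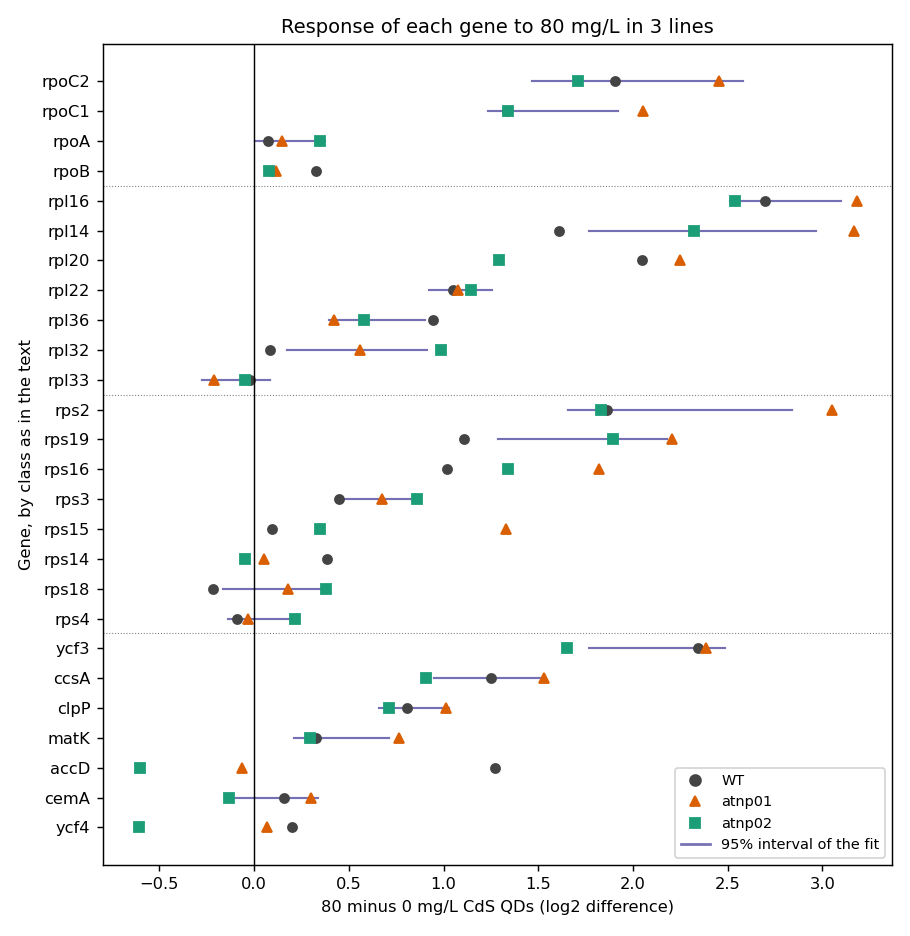
Log2 difference between 80 and 0 mg/L CdS QDs (horizontal axis) for each of 26 plastid-encoded genes, by class from top to bottom: RNA polymerase, large ribosomal subunit, small ribosomal subunit and other. Points are single pairs of arrays (WT, atnp01, atnp02) and lines the 95% interval of the limma coefficient for the 19 genes tested; rpl16 lay between 2.54 and 3.18 in the 3 lines, while rpl33 and rps4 lay near 0.

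The test for this was limma, with terms for line and dose, on the 6 arrays that leave out 40 mg/L and over all genes whose brightest array reached log2 6, with Benjamini-Hochberg adjustment at 0.05. The error of a coefficient draws on how far the 3 lines differed in their response, with 2 residual degrees of freedom, and not on repeated plants. Moderation adds 4.9 prior degrees of freedom taken from all tested genes. The error thus rests more on other genes of like brightness than on the gene's own 3 lines. Of the 26 genes 19 reached this floor, and 14 of them rose and 0 fell, where 27.8% of all tested genes rose and 29.3% fell. The same number, 14 of 19, had every 80 mg/L array above every unexposed one, where 30.4% of all tested genes did, and 0 had every one below, where 34.1% did. Of the 19, rpoC2, rps2 and ycf3 reached the floor only on exposed arrays and had to differ for that reason. Of the 16 that reached it on an unexposed array 11 rose, where 20.4% of all such genes did. With no floor, 15 of all 26 rose and 0 fell, where 9.38% of 13356 genes rose and 9.73% fell. That fit lost rpl32 and added rpl20 and rps16. Anything else that set the exposed arrays apart cannot be told apart from the dots.

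**Figure D2:**
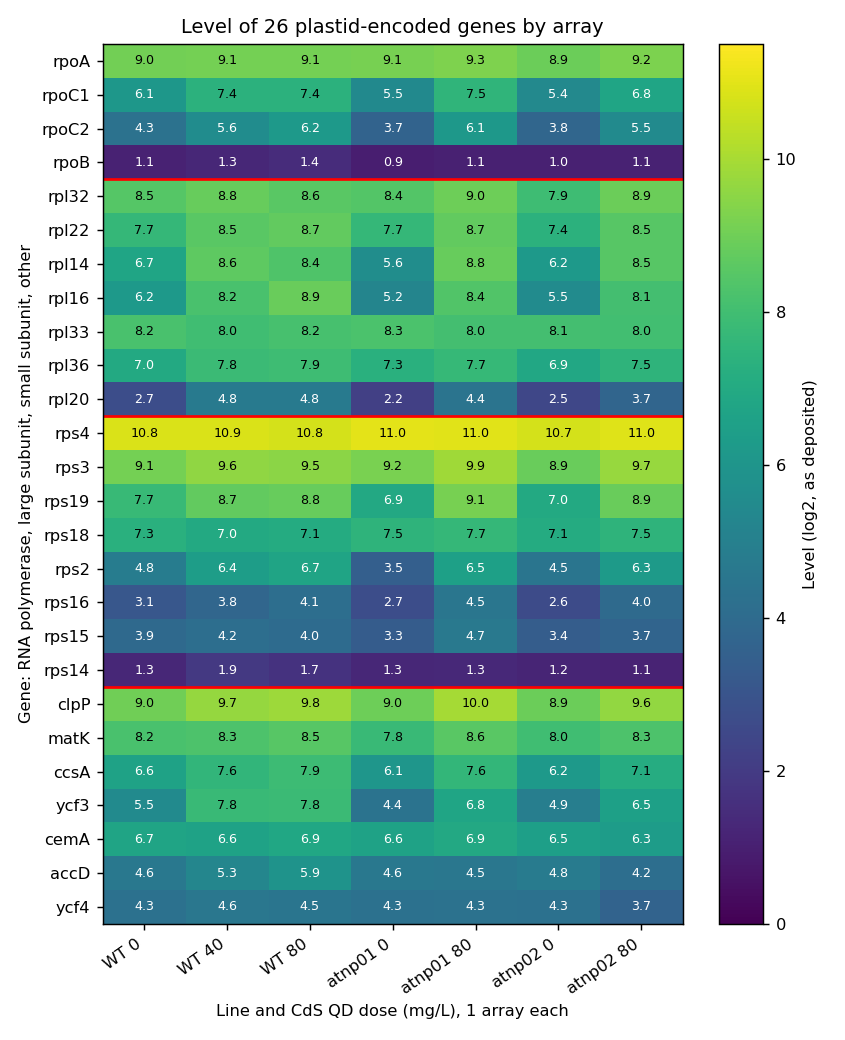
Deposited log2 level of each of the 26 genes (rows) on each of the 7 arrays (columns, line and dose in mg/L), with red lines between the classes; colour and printed value show the same level, and rows should be read from left to right only, since probe sets differ in brightness. rpl16 stood at 5.2 to 6.2 on the unexposed and at 8.1 to 8.9 on the 80 mg/L arrays, and rps4 between 10.7 and 11.0 on all 7.

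Of the 4 polymerase genes, rpoC1 and rpoC2, which encode the 2 parts into which the largest bacterial subunit is split in plastids, rose, and rpoA did not pass. rpoC1 was at 6.07 in WT, 5.47 in atnp01 and 5.42 in atnp02 without QDs, and at 7.40, 7.52 and 6.76 at 80 mg/L. Its exposed arrays all lay above its unexposed ones, and the coefficient was 1.58 (SE 0.14, n = 3 lines, adjusted p = 0.000211 in limma), or 2.98-fold. rpoC2 was at 4.33, 3.68 and 3.80 without QDs and at 6.24, 6.13 and 5.52 at 80 mg/L, again with no overlap, and rose by 2.02 (SE 0.24, adjusted p = 0.000530). Since it reached the floor only on exposed arrays, this call was in part set by the floor. In the fit with no floor its adjusted p was 0.000776 in limma.

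rpoA encodes the alpha subunit, on which the polymerase assembles. It was at 9.03, 9.13 and 8.90 in WT, atnp01 and atnp02 without QDs and at 9.10, 9.28 and 9.25 at 80 mg/L. Its groups overlapped, and the coefficient of 0.19 (SE 0.08) had a 95% interval from 0.01 to 0.37 before adjustment and an adjusted p of 0.0739. It passed after loess normalization (adjusted p = 0.0313) and without the WT arrays (adjusted p = 0.0337). rpoB, for the beta subunit and the first gene of the operon that holds rpoC1 and rpoC2, lay between 0.95 and 1.45 on all 7 arrays, a range near background in which no change could be read. Of the 3 genes of this operon, 2 rose, where 27.8% of all tested genes did, and rpoB could not be read.

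The largest transcription unit among these genes is the ribosomal protein cluster, in which rps19, rpl22, rps3, rpl16, rpl14, rpl36 and rpoA follow one another among members that were not measured here. Of its 7 measured genes 6 rose, where 27.8% of all tested genes did. The rises were of very different amounts, and the size of the response did not run evenly along the cluster. The coefficients in gene order were 1.74 for rps19, 1.09 for rpl22, 0.66 for rps3, 2.80 for rpl16, 2.37 for rpl14, 0.65 for rpl36 and 0.19 for rpoA. The plot along the cluster shows this order with rpl16 and rpl14 at its top in all 3 lines.

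**Figure D3:**
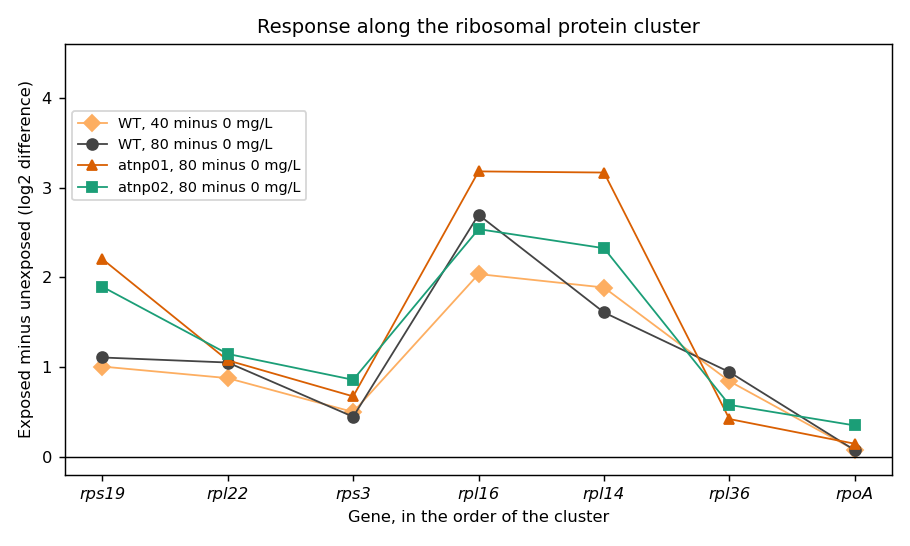
Log2 difference between exposed and unexposed seedlings (vertical axis) for the 7 measured genes of the ribosomal protein cluster in gene order (horizontal axis), with 1 line each for WT at 40 and 80 mg/L and for atnp01 and atnp02 at 80 mg/L, each against the unexposed array of its own line. All 4 lines peak at rpl16, and at rpoA they lie between 0.07 and 0.35.

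The roles given for ribosomal proteins are those known from bacteria. rpl16 encodes a large-subunit protein close to the site where transfer RNA is accommodated. It stood at 6.16 in WT, 5.21 in atnp01 and 5.54 in atnp02 without QDs, at 8.20 in WT at 40 mg/L, and at 8.86, 8.39 and 8.08 at 80 mg/L. All exposed arrays lay above all unexposed ones by at least 1.92, and rpl16 rose by 2.80 (SE 0.12, n = 3 lines, adjusted p = 4.1e-05), or 6.99-fold with a 95% interval from 5.70 to 8.57. Among the 26 genes it had the highest difference in each of the 3 lines.

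rpl14, whose protein sits where the subunits meet, stood at 6.74, 5.64 and 6.21 without QDs, at 8.63 in WT at 40 mg/L, and at 8.35, 8.81 and 8.53 at 80 mg/L. The groups did not overlap, and it rose by 2.37 (SE 0.25, adjusted p = 0.000375). The difference was 1.61 for WT, 3.17 for atnp01 and 2.32 for atnp02. The unexposed arrays of the 3 lines lay 1.11 apart and the 80 mg/L arrays 0.45 apart.

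rps19, for a protein of the small-subunit head, stood at 7.73, 6.93 and 6.98 without QDs and at 8.84, 9.14 and 8.88 at 80 mg/L, and rose by 1.74 (SE 0.19, adjusted p = 0.000399). rpl22, whose protein lines the exit tunnel of the nascent chain, stood at 7.67, 7.67 and 7.38 and then at 8.72, 8.74 and 8.53. Its differences of 1.05, 1.08 and 1.15 were the most even among the genes that rose, with an SE of 0.07 and an adjusted p of 6.36e-05. rps3, which takes part in the entry of mRNA, stood at 9.08, 9.19 and 8.86 and then at 9.52, 9.87 and 9.72, a rise of 0.66 (SE 0.09, adjusted p = 0.00100). rpl36, for the smallest ribosomal protein, rose by 0.65 (SE 0.11, adjusted p = 0.00236), with differences of 0.94 for WT, 0.42 for atnp01 and 0.58 for atnp02.

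The ribosomal protein genes outside the cluster were mixed: some rose, and others did not pass. rps2 begins the operon of the ATP synthase genes atpI, atpH, atpF and atpA. It stood at 4.83 in WT, 3.50 in atnp01 and 4.45 in atnp02 without QDs and at 6.70, 6.55 and 6.28 at 80 mg/L, and rose by 2.25 (SE 0.25, adjusted p = 0.000434). Only its exposed arrays reached the floor, so this call was in part set by the floor. In the fit with no floor its adjusted p was 0.00253 in limma. The operon's other genes were higher too on the 80 mg/L arrays of all 3 lines, with differences of 1.00, 2.43 and 1.02 for atpI, 0.96, 1.76 and 1.17 for atpF, and limma coefficients of 1.47 (SE 0.12) for atpH and 1.11 (SE 0.16) for atpA, which passed. Like rps2, atpH reached the floor only on exposed arrays, with 5.49 as its highest unexposed value. In each of these 5 genes the atnp01 pair showed the highest difference.

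rpl20, which lies next to rps12 and clpP, stood at 2.71, 2.18 and 2.46 without QDs and at 4.76, 4.43 and 3.75 at 80 mg/L. rps16, a small-subunit gene interrupted by an intron, stood at 3.13, 2.70 and 2.63 and then at 4.15, 4.52 and 3.97. Both genes had exposed values above all unexposed ones but remained below the floor, so they were tested only in the fit with no floor, with coefficients of 1.86 (SE 0.20, adjusted p = 0.00246) for rpl20 and 1.39 (SE 0.17, adjusted p = 0.00377) for rps16. Differences between such dim values have no exact size.

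rpl32, another large-subunit gene, stood at 8.48, 8.42 and 7.93 without QDs, at 8.85 in WT at 40 mg/L and at 8.56, 8.98 and 8.92 at 80 mg/L. The WT pair differed by 0.09, the atnp01 pair by 0.56 and the atnp02 pair by 0.99. It rose by 0.54 (SE 0.16, adjusted p = 0.0221) over the 3 lines, and was the only call among the 14 that alternative fits lost, with an adjusted p of 0.0692 without the atnp01 arrays, 0.106 without the atnp02 arrays, 0.0642 with a linear dose term and 0.0682 with no floor.

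rps4, a gene for a protein that starts the assembly of the small subunit, differed little between arrays: 10.85, 11.01 and 10.74 without QDs, 10.85 in WT at 40 mg/L and 10.76, 10.98 and 10.96 at 80 mg/L. Its coefficient was 0.03 with a 95% interval from -0.14 to 0.20, so that in this fit a change beyond 1.15-fold either way lay outside the interval. rpl33 and rps18 are neighbours of the photosystem gene psaJ. The coefficient of rpl33 was -0.10 with an interval from -0.27 to 0.08, that of rps18 was 0.11 with an interval from -0.16 to 0.39, and that of psaJ was -0.11. None of the 3 passed, although rps18 did without the WT arrays, at 0.28 (adjusted p = 0.0310). rps14 lay between 1.15 and 1.92 on all arrays, near background. rps15 stood at 3.95, 3.34 and 3.37 without QDs and at 4.04, 4.67 and 3.72 at 80 mg/L, below the floor and with overlapping groups.

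The genes of other functions split in the same way. ycf3 encodes an assembly factor of photosystem I. It stood at 5.49 in WT, 4.38 in atnp01 and 4.90 in atnp02 without QDs, at 7.80 in WT at 40 mg/L and at 7.83, 6.77 and 6.55 at 80 mg/L. The groups did not overlap, and ycf3 rose by 2.13 (SE 0.15, adjusted p = 8.68e-05). As it reached the floor only on exposed arrays, this call was in part set by the floor. In the fit with no floor its adjusted p was 0.000735 in limma. ccsA, which attaches heme to c-type cytochromes, stood at 6.63, 6.06 and 6.22 and then at 7.88, 7.59 and 7.13, a rise of 1.23 (SE 0.12, adjusted p = 0.000248).

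clpP encodes a proteolytic subunit of the stromal Clp protease. It stood at 8.99, 8.96 and 8.93 on the unexposed arrays, which lay close together, and at 9.80, 9.97 and 9.64 at 80 mg/L, and rose by 0.84 (SE 0.08, adjusted p = 0.000212). matK, the plastid intron maturase, stood at 8.18, 7.80 and 7.98 and then at 8.50, 8.56 and 8.27. It rose by 0.46 (SE 0.11, adjusted p = 0.00938), and its lowest exposed array exceeded its highest unexposed one by 0.10.

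accD, ycf4 and cemA lie in 1 group of genes with psaI and petA, and none of the 3 passed. accD encodes a subunit of acetyl-CoA carboxylase, which starts fatty acid synthesis. It was at 4.61, 5.27 and 5.88 in WT at 0, 40 and 80 mg/L, at 4.61 and 4.54 in atnp01 and at 4.76 and 4.16 in atnp02 at 0 and 80 mg/L. The WT values stood in the order of dose, while neither mutant was higher when exposed. accD stayed below the floor on every array. ycf4, another photosystem I assembly factor, had the same value of 4.27 on all 3 unexposed arrays and stood at 4.57 in WT at 40 mg/L and at 4.47, 4.34 and 3.66 at 80 mg/L, and did not pass in the fit with no floor, at -0.11 (SE 0.17, adjusted p = 0.694). cemA, for a protein of the inner envelope, had differences of 0.16 for WT, 0.30 for atnp01 and -0.13 for atnp02, and a coefficient of 0.11 with an interval from -0.12 to 0.34. Their neighbours psaI and petA, read on the same arrays, rose by 1.06 (SE 0.14) and 1.74 (SE 0.27) in limma.

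Compared by class, the median differences between 80 and 0 mg/L over all members were 0.83 for WT, 1.099 for atnp01 and 0.84 for atnp02 over the 4 polymerase genes. They were 1.05, 1.08 and 1.15 for the 7 large-subunit genes, 0.42, 1.00 and 0.62 for the 8 small-subunit genes, and 0.81, 0.76 and 0.29 for the 7 others. The order of the classes was not the same in the 3 lines, and each class held genes near 0 beside genes more than 4-fold higher. Over the genes that reached log2 6, the polymerase genes had the highest median in each line, at 1.34, 2.05 and 1.34. The large-subunit genes had 1.00, 0.82 and 1.07, the small-subunit genes 0.45, 0.67 and 0.86, and the others 0.81, 1.01 and 0.71. The polymerase median rests on 3 genes, of which rpoC2 reached log2 6 only on exposed arrays. With no floor, 2 of 4, 5 of 7, 4 of 8 and 4 of 7 genes rose in these classes, where 9.38% of all genes did. By transcription unit the median differences were 1.05, 1.08 and 1.15 over the 7 genes of the ribosomal cluster, and 1.34, 2.05 and 1.34 over the 3 of the rpoB operon. They were 0.20, 0.07 and -0.60 over accD, ycf4 and cemA, and -0.12, -0.02 and 0.16 over rpl33 and rps18.

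In WT the genes were about as high at 40 as at 80 mg/L. The median difference from the unexposed array was 0.67 at 40 and 0.88 at 80 mg/L, 23 of the 26 genes were higher than without QDs at each dose, and the median difference between 80 and 40 mg/L was 0.10. Over all genes these medians were 0.00, -0.001 and 0.00, and the share of genes higher than without QDs was not counted. For 23 of the 26 genes the 2 exposed WT arrays lay within 0.5 of each other, and the share of all genes for which they did was not counted. The other 3 of the 26 were rpl16, rpoC2 and accD, higher at 80 than at 40 mg/L by 0.66, 0.64 and 0.61. At the other end rpl32 and rpl14 differed by -0.29 and -0.28. Both comparisons with 0 mg/L share the unexposed WT array.

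Counted as single pairs of arrays, with no test, 8 of the 26 genes were at least 2-fold higher in WT at 40 mg/L, where 2.37% of all genes were. At 80 mg/L there were 12 in WT (2.47% of all genes), 13 in atnp01 (3.16%) and 10 in atnp02 (3.83%). None of the 26 was 2-fold lower in any of these pairs, where 1.21%, 1.34%, 2.07% and 2.14% of all genes were. Between WT at 80 and 40 mg/L none of the 26 was 2-fold apart, where 0.651% of all genes were higher and 0.442% lower. Counting pairs in which the brighter array reached log2 6, the numbers were 6 of 18 genes at 40 mg/L (4.98% of all such genes), and at 80 mg/L 9 of 19 in WT (5.60%), 10 of 19 in atnp01 (7.41%) and 7 of 18 in atnp02 (7.81%). None of these was 2-fold lower, where 2.38%, 2.49%, 3.88% and 3.75% of all such genes were, and between WT at 80 and 40 mg/L 0 of 19 were 2-fold apart, where 1.98% were higher and 0.481% lower. At this floor some genes entered a pair with 0 mg/L only through its exposed array and had to be higher for that reason. They were rps2 and ycf3 in every such pair and rpoC2 in WT and atnp01 at 80 mg/L. The same held for rpoC1 and rpl16 in both mutants and for rpl14 in atnp01.

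Without QDs, 19 of the 26 genes lay below WT in atnp01, 24 in atnp02 and 18 in both, where 44.8%, 46.2% and 27.7% of all genes did. The median differences were -0.12 and -0.24, beside 0.00 over all genes in either mutant, and for several genes, such as rpl22 and accD in atnp01, the difference was within 0.01 of 0. Of the 16 genes at the floor 6 lay above WT in atnp01, with a median of -0.05, and 0 in atnp02, with a median of -0.22. rps2 differed by -1.34 in atnp01 and -0.38 in atnp02, rpl14 by -1.11 and -0.54, ycf3 by -1.103 and -0.59, rpl16 by -0.95 and -0.62, and rps19 by -0.80 and -0.75. rps2, rpl14 and ycf3 were 2-fold lower in atnp01 and none in atnp02, where 0.262% and 0.12% of all genes were, and none of the 26 was 2-fold higher, where 0.21% and 0.12% were. At the floor these counts were 1 of 16 in atnp01, rpl14, and 0 of 16 in atnp02, where 0.437% and 0.0562% of all such genes were lower and 0.164% and 0.169% higher. In that atnp01 pair rpl14 reached the floor only in WT. The comparisons of both mutants use the 1 unexposed WT array.

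**Figure D4:**
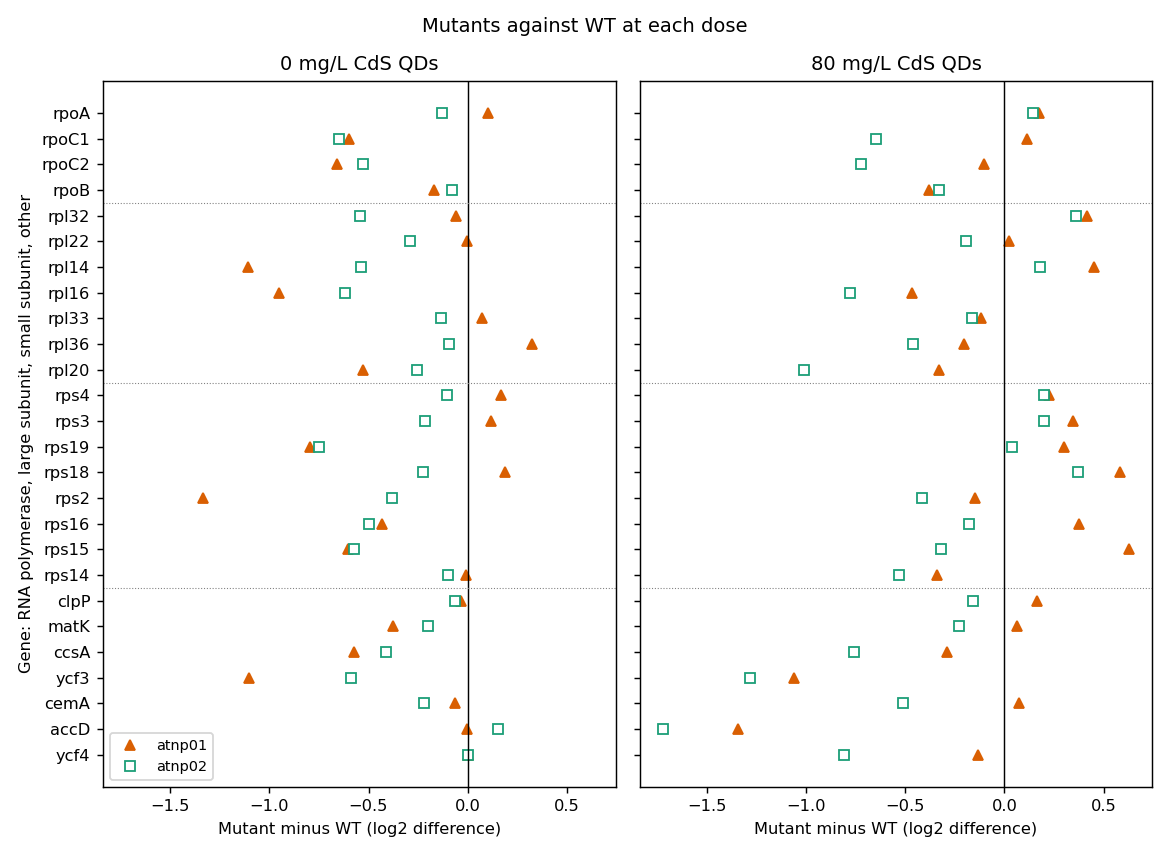
Log2 difference of each mutant from WT (horizontal axes) for each of the 26 genes by class, without QDs (left) and at 80 mg/L (right); each point is a pair of single arrays. Most points lie below 0 on the left, with rps2 in atnp01 at -1.34, and on the right accD and ycf3 lie below -1 in both mutants.

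At 80 mg/L the median difference from WT was 0.04 in atnp01, with 12 of the 26 genes below WT, where 48.1% of all genes were. In atnp02 it was -0.32, with 19 below, where 51.9% of all genes were. accD differed from WT by -1.34 for atnp01 and -1.72 for atnp02, and ycf3 by -1.06 and -1.28. These were the 2 genes of the 26 that were 2-fold lower in atnp01, where 0.621% of all genes were. In atnp02 rpl20 differed by -1.01 as well, so that 3 genes were 2-fold lower, where 0.344% of all genes were. None was 2-fold higher, where 0.404% and 0.539% were. At the floor ycf3 alone of 19 was 2-fold lower in each mutant, where 0.759% and 0.656% of all such genes were lower and 0.596% and 0.601% higher. ycf3 thus stood below WT in both mutants at both doses. How many of all genes stood above WT in both mutants at 80 mg/L was not counted, and of the 26 genes 7 did. These were rps18 by 0.58 in atnp01 and 0.37 in atnp02, rpl14 by 0.45 and 0.18, rpl32 by 0.42 and 0.36, rps3 by 0.34 and 0.20, rps19 by 0.30 and 0.04, rps4 by 0.23 and 0.20, and rpoA by 0.17 and 0.15.

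The differences between lines at a single dose have no test. In limma, which compared the lines over both doses, none of the 19 genes at the floor passed, and with no floor none of all 26 did. For ycf3 the line coefficient over both doses was -1.08 in atnp01 (SE 0.18, adjusted p = 0.0990) and -0.94 in atnp02 (SE 0.18, adjusted p = 0.358), and for rpl16 it was -0.71 (SE 0.15) and -0.70 (SE 0.15), with adjusted p of 0.139 and 0.412. Of all tested genes 0.095% and 0.0475% were higher in atnp01 and atnp02 and 0.0475% and 0% lower. Of the 19 genes, 5 in atnp01 and 6 in atnp02 had an unadjusted p under 0.05, where 199 and 145 of all 2106 tested genes did.

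Whether the mutants responded differently from WT was asked with a mutant-by-dose term, which takes the mutants as 1 class and leaves 1 residual degree of freedom. None of the 19 genes passed in limma, where 0.0475% of all genes had a larger and 0% a smaller response. Of the 19, 5 had an unadjusted p under 0.05, where 210 of all 2106 tested genes did. rps19 had the lowest adjusted p of these genes, 0.127, with a response larger in the mutants by 0.94 (SE 0.17), and it passed under 2 of 5 alternatives. The terms for rpl14 and rpl32 were 1.14 (SE 0.30) and 0.69 (SE 0.19), with adjusted p of 0.321 and 0.336. For clpP and rpl22, with terms of 0.05 (SE 0.16) and 0.06 (SE 0.14), the 95% intervals ran from -0.31 to 0.42 and from -0.27 to 0.39.

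The nuclear genes whose products work with these were measured only in part. None of 6 sigma factors, of 13 polymerase-associated proteins and of 4 nuclear subunits of plastid acetyl-CoA carboxylase was on the annotation, and the 1 of 2 nuclear-encoded plastid polymerases that was did not reach the floor. Of 39 nuclear genes for plastid ribosomal proteins 9 were on the annotation and all 9 reached the floor, with a median coefficient of -0.17. PSRP1, for a ribosome-associated factor, rose by 0.41 (SE 0.11, adjusted p = 0.0215), PRPS10 fell by 0.39 (SE 0.08) and PRPL34 fell by 0.30 (SE 0.07), and the other 6 did not pass. The 11 plastid-encoded ribosomal protein genes that reached the floor had 8 rises, no fall and a median of 0.66 in the same fit. Over all 2106 genes the median was -0.03, and 27.8% rose and 29.3% fell. Among the 8, rps2 reached the floor only on exposed arrays.

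Of 13 nuclear genes of the Clp protease, the partners of clpP, 4 were measured and none passed, with coefficients between -0.12 for CLPT2 and 0.17 for CLPR3. Of 3 nuclear genes for cytochrome c assembly, in which ccsA takes part, AT1G49380 (CCS1, the partner of ccsA) fell by 0.41 (SE 0.09, adjusted p = 0.00977) and CCDA was at 0.00. CCS1 reached the floor only on the unexposed atnp01 array, at 6.05, so its fall was in part set by the floor. Of 14 genes of plastid RNA processing the 1 measured, CP33B, was at -0.05 and did not pass. The root marker PYK10 fell by 0.25.

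Among the other plastid-encoded genes, with no floor, 22 of 33 for photosystems, cytochrome complex, ATP synthase and Rubisco rose and 0 fell. Of the 10 for NADH dehydrogenase 3 rose and 1 fell, beside the 15 of 26 described here. Over all genes 9.38% rose and 9.73% fell. The medians of the coefficients were 0.84 and 0.07 for these other plastid-encoded genes, in that order, beside 0.65. Whether the 3 groups differ was not tested.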

How the data were processed

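The authors deposited log2 values for 22810 probe sets on 7 arrays, and the submitters' processing notes name RMA and version 1.1 of the Affymetrix Expression Console; no source used here gives the background step or the probe-set definition. Among the values of the 26 genes, 3 repeat another array's value exactly, and whether a further step followed RMA is not known. Of the 13513 probe sets with 1 gene on the platform annotation, 13436 matched the gene table of assembly TAIR10.1, and all 26 genes described here had 1 probe set each. For other genes the probe set with the highest mean stood for the gene. Genes whose brightest array reached log2 6 were fitted with limma 3.58.1 (R 4.3.3), with empirical Bayes moderation, an intensity trend and Benjamini-Hochberg adjustment over all 2106 tested genes, and the fit was checked on simulated data. Python 3.11.15 and pandas 2.3.3 were used for the tables. Every one of the 26 genes could be named; from the other lists up to 4 genes were named by the size of the coefficient, and of the green markers none. Assignments to transcription units are textbook knowledge, with gene order from the gene table. The genes, lists and tests were chosen with earlier results of these data known. No sequences were used, since the tables used here hold none. Alternatives were floors, normalizations, the trend, the line term, the probe-set rule, the dose coding and leaving out each line.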

Additional observations from a re-analysis of the deposited data

Results flagged for a closer look

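accD, for the acetyl-CoA carboxylase subunit, had differences of opposite sign in WT and in the mutants: 80 minus 0 mg/L gave 1.27 for WT, -0.0624 for atnp01 and -0.60 for atnp02. In atnp01 it was close to 0, so that of the mutants only atnp02 stood clearly on the other side. The gene lay below log2 6 on every array, so the difference between the lines was not tested in the fit reported. With no floor, the mutant-by-dose term was -1.60 (SE 0.28, unadjusted p = 0.0056, adjusted p = 0.82 in limma) and did not pass.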

How the results depend on the processing

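Of the 14 rises at 80 mg/L, 13 kept their direction and passed in each of up to 13 alternative fits in which the gene was tested, and 176 of 180 such fits passed; the other 4 were those of rpl32. The number of genes that rose was 13 to 16 when 1 line was left out, and none fell in any fit. One gene, rps19, had a larger response in the mutants after quantile normalization (adjusted p = 0.0384) and with a floor of log2 7 (adjusted p = 0.0329), against 0 in the fit reported; the number of genes tested is smaller under that floor, and for quantile normalization the cause was not tested. After loess normalization 2 genes instead of 1 at the floor were 2-fold lower in unexposed atnp01 than in WT, and the median differences at 80 mg/L were 0.99 in atnp01 and 0.85 in atnp02, and 1.16 for the large-subunit genes in atnp01; the cause was not tested. With no floor, which admits dimmer genes, 3 genes were 2-fold lower in unexposed atnp01, and at 80 mg/L 2 in atnp01 and 3 in atnp02. Without a floor all genes called at 80 mg/L numbered 1253 higher and 1299 lower, against 585 and 617. They numbered 306 and 314 with a floor of log2 7, 395 and 385 with a linear dose term, and 431 and 367 without the atnp01 arrays. Exposed and unexposed arrays were paired by line through the line term, and without that term 14 genes rose too. By replicate number, no pairing was possible because the labels give none. The 7 genes below log2 6 were read on dim probe sets, so the size of their differences is uncertain.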

Other observations

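psaA, psaB and rps14 form 1 transcription unit, of which psaB alone reached log2 6. psaB, of the photosystem I reaction centre, rose by 1.88 (SE 0.17, adjusted p = 0.00021 in limma), psaA was higher at 80 than at 0 mg/L by 0.42 for WT, 1.16 for atnp01 and 0.67 for atnp02, at levels of 1.81 to 3.27, and rps14 lay near background, so the 3 responses cannot be set against each other. Across the 26 genes, the differences between 80 and 0 mg/L correlated at r = 0.84 between WT and atnp01, 0.76 between WT and atnp02 and 0.92 between the mutants, with rank correlations of 0.78, 0.71 and 0.92. These comparisons share no array, but they share probe sets and their brightness, and genes of 1 transcription unit are not independent points.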
